A study of Mus musculus with 5 samples.

Results

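Small leucine-rich proteoglycans (SLRPs) were followed at the RNA level in Prx1-derived skeletal muscle cells through the first days of bone repair. The set was named by symbol and holds 9 genes, Dcn, Bgn, Aspn, Fmod, Lum, Kera, Prelp, Omd and Ogn, of the 31055 genes in each deposited matrix. Cells were GFP+ cells sorted from hindlimb muscle of Prx1Cre;mTmG mice of 10 to 14 weeks on a C57Bl/6 background, in which Cre from the Prx1 (Prrx1) limb mesenchyme promoter leaves GFP in all descendants of cells that once used it. The sort therefore marks a lineage and not a present cell type. One droplet scRNAseq library, pooled from 2 mice, was made for each of 5 conditions. These were uninjured muscle (d0), muscle 3 or 5 days after a non-stabilized tibial fracture (d3 or d5 post-fracture), and muscle at the same days after polytrauma, in which the muscles beside the fracture were mechanically injured too. Muscle around the tibia was taken without periosteum or marrow. As each condition has 1 library, the differences carry no test and no p-value. All intervals below are exact 95% intervals that cover counting error only, and a gene is called higher or lower in a comparison where the ratio of its levels is at least 2-fold.

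The conditions of 2 libraries go against their deposited labels. Of this pair, one holds 6915 barcodes and carries the deposited label d5 post-fracture, and it is treated here as d3 post-polytrauma. The other holds 2001 barcodes and carries the deposited label d3 post-polytrauma, and it is treated here as d5 post-fracture. This exchange follows the cell numbers that the study gives per condition. Cell barcodes also separated the libraries. The d0, d3 post-fracture and d3 post-polytrauma libraries, as named here, shared 405 to 525 barcodes with one another, the d5 libraries shared 944, and any pair of libraries across the 2 sets shared 0 to 3. Every comparison of d5 with d3 crosses these sets, so time and the making of the libraries cannot be told apart there, while the comparisons with d0 and those of polytrauma with fracture stay within a set. Each count of SLRP genes over whole libraries that the exchange touches is also given for the conditions as deposited, and cell types are described for the conditions used here alone.

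SLRPs are secreted proteins built around leucine-rich repeats that bind the surface of collagen fibrils and set fibril diameter and spacing. Decorin (Dcn), biglycan (Bgn) and asporin (Aspn) form class I; decorin and biglycan usually carry chondroitin or dermatan sulfate chains, whereas asporin does not. Fibromodulin (Fmod), lumican (Lum), keratocan (Kera), prolargin (Prelp) and osteomodulin (Omd, also called osteoadherin) form class II, several of which can carry keratan sulfate, and osteoglycin (Ogn, also called mimecan) belongs to class III. Decorin and biglycan also bind TGF-beta, and fibromodulin and biglycan are known for their part in tendon. In muscle the fibro-adipogenic or mesenchymal progenitors (FAP/MP) are a main source of this matrix.

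After filtering, 29831 cells remained, between 1468 (d5 post-fracture) and 11941 (d5 post-polytrauma) per library. The median depth was 3640 unique molecular identifiers (UMIs) per cell at d0 and 15688 to 34949 in the injured libraries, so depth moves with injury. Prrx1 lay between 124 and 275 CPM (UMIs scaled so that all libraries have equal totals) in all 5 libraries. The 5 FAP/MP markers summed to 933 to 2332 CPM, the 6 hematopoietic markers to 16.3 to 65.2, the 4 endothelial markers to 2.2 to 11.6 and the 5 myogenic markers to at most 3.72, with Pax7 at 0 in 3 libraries. The proliferation gene Mki67 lay at 1.03 CPM at d0, 18.2 in both d3 libraries, 62.1 at d5 post-fracture and 84.7 at d5 post-polytrauma. Mki67 thus differed between the libraries of each comparison below other than that between injuries at d3. Its part in the comparisons was not tested beyond leaving out the dividing clusters.

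In the mouse genome (GRCm38, GENCODE M21) the 9 genes are protein-coding and, except for Bgn, lie in small groups. Dcn (chromosome 10 from 97479609 to 97518143), Lum (97565128 to 97572703) and Kera (97606879 to 97613692) follow one another on the plus strand with no other coding gene between neighbours. Aspn (chromosome 13 from 49544443 to 49567565), Omd (49582462 to 49592822) and Ogn (49608046 to 49624501) do the same, with gaps of 14.9 and 15.2 kb. Prelp (chromosome 1 from 133910304 to 133921414, minus strand) and Fmod (134037254 to 134048277, plus strand) are neighbours with 116 kb between them, and Bgn stands alone on chromosome X from 73483602 to 73495933.

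Promoter sequences from RefSeq (GRCm38.p6) were matched for 7 of the 9 genes, all but Dcn and Lum. The windows of 3 genes are shown because these genes differed in where they were found: Bgn was abundant in nearly every cluster after injury, Fmod was highest in tenocyte-like or chondrocyte-like cells in each library, and Aspn was higher in both d5 libraries than in the others. Each line holds the 250 bases before the start, 5′ to 3′ on the plus strand, at chrX:73483351-73483600 (Bgn), chr1:134037004-134037253 (Fmod) and chr13:49544193-49544442 (Aspn). Capitals mark the E-box CANNTG, the core bound by basic helix-loop-helix factors such as the tendon factor Scx.
Bgn: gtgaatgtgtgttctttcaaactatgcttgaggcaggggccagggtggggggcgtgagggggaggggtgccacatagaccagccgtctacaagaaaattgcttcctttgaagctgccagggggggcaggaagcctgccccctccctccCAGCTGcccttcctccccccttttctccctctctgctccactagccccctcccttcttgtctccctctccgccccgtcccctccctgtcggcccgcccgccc
Fmod: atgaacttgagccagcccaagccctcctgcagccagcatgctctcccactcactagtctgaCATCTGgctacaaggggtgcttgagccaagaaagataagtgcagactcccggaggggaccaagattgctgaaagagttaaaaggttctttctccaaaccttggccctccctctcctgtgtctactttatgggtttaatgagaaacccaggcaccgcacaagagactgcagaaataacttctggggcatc
Aspn: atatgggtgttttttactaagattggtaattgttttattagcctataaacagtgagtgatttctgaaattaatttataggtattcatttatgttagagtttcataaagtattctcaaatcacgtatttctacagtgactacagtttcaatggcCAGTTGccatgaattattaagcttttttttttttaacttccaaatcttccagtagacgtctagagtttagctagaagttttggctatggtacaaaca

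The windows differ in base composition. The Bgn window had 64.4% G and C and 7 CpG pairs, that of Fmod 51.2% and 2, and that of Aspn 30% and 2, against medians of 52.4% and 6 over the 32851 windows of all promoters. Searched on both strands with overlapping matches counted, CANNTG was present in 4 of the 7 windows and in 66.2% of all promoters. TATAAA was present in the windows of Aspn and Ogn, 2 of 7, against 12.4% of all, and CAGAC, a SMAD-type core, in those of Fmod and Prelp, 2 of 7, against 42.2% of all. The Kera window lies wholly inside the longer GENCODE model of that gene, and the Prelp window overlaps its model by 13 bases. A match is a description of these letters only.

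SLRP transcripts made up 1.88% of all UMIs in uninjured cells and a much smaller share after injury. This is a share and not an amount per cell, as the median depth was 3640 UMIs at d0 and 15688 to 34949 after injury. The levels and calls against d0 below are relative in the same way. The 9 genes summed to 18766 CPM at d0, 4666 at d3 post-fracture, 9973 at d5 post-fracture, 4206 at d3 post-polytrauma and 5781 at d5 post-polytrauma. The sum was thus lowest in the d3 libraries, and at d5 it was higher after fracture than after polytrauma. The balance between the main pair, decorin and biglycan, also differed. At d0 Dcn gave 69.1% of the SLRP UMIs and Bgn 7.6%. At d3 post-fracture the shares were 25.1% and 53.3%, at d3 post-polytrauma 30.2% and 55.3%, and at d5 post-polytrauma 21.2% and 52.8%. Dcn had 9.09 UMIs per UMI of Bgn at d0 (8.97 to 9.21), 0.470 at d3 post-fracture, 0.546 at d3 post-polytrauma, 0.889 at d5 post-fracture and 0.401 at d5 post-polytrauma. Bgn was the leading SLRP in each injured library, and d5 post-fracture came nearest to balance. As 3′ UMIs are counted once per transcript, these ratios between genes do not depend on transcript length, though capture may differ between genes.

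**Figure D1:**
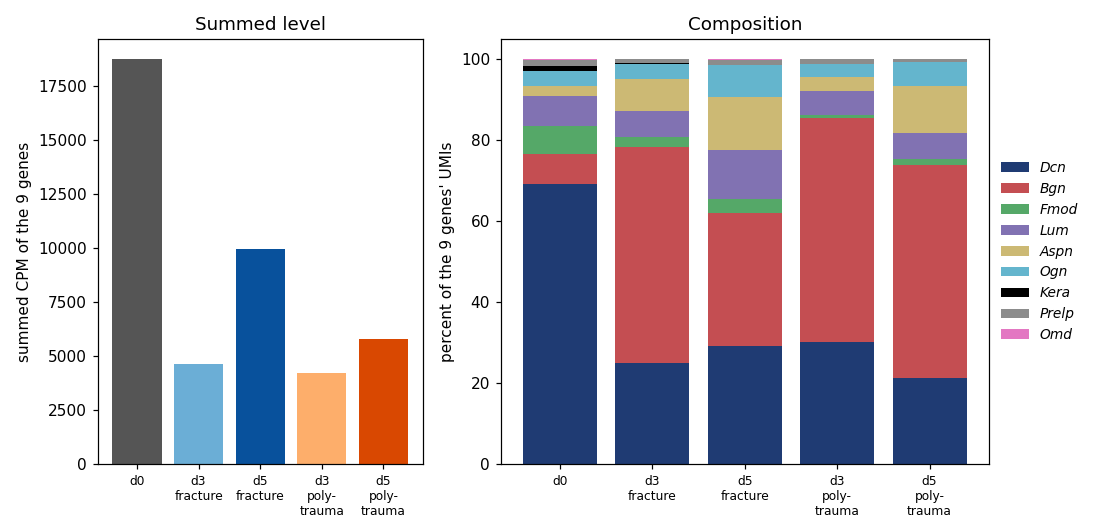
Left, the summed CPM of the 9 SLRP genes in each library (bars from 0). Right, the percent of SLRP UMIs that each gene contributed; Dcn holds 69.1% at d0 and 21.2% to 30.2% after injury, where Bgn holds 32.8% to 55.3%.

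Among class I genes, Dcn was the third most abundant transcript of all genes at d0. Its level was 12960 CPM at d0, 1169 at d3 post-fracture, 2910 at d5 post-fracture, 1269 at d3 post-polytrauma and 1225 at d5 post-polytrauma. Thus d0 stands far above the rest, d5 post-fracture comes next, and the other injured libraries lie close together. Bgn was found at 1426 CPM at d0, 2485 at d3 post-fracture, 3273 at d5 post-fracture, 2324 at d3 post-polytrauma and 3050 at d5 post-polytrauma. It was the one SLRP whose level was lowest at d0, and its span from lowest to highest library, 2.30-fold, was the narrowest of the 9. Aspn, which binds calcium and collagen, lay at 449 CPM at d0, 361 at d3 post-fracture, 1311 at d5 post-fracture, 148 at d3 post-polytrauma and 673 at d5 post-polytrauma. Both d5 libraries were above d0 for this gene, and d3 post-polytrauma was the lowest.

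The class II genes were highest at d0. Fmod lay at 1260 CPM at d0, 110 at d3 post-fracture, 347 at d5 post-fracture, 32.5 at d3 post-polytrauma and 83.9 at d5 post-polytrauma. At each day the polytrauma library was the lower one. Kera, a keratan sulfate proteoglycan best known from cornea and found in tendon, lay at 196 CPM at d0 (190 to 203) and at 6.00, 4.40, 4.66 and 7.44 at d3 and d5 post-fracture and at d3 and d5 post-polytrauma, respectively. Its span of 44.7-fold was the widest of the 9, with d0 far from all injured libraries. Lum, which limits collagen fibril growth, lay at 1416 CPM at d0, 306 at d3 post-fracture, 1208 at d5 post-fracture, 245 at d3 post-polytrauma and 362 at d5 post-polytrauma. For Lum the d5 post-fracture library was near d0, whereas d5 post-polytrauma stayed close to the d3 libraries. Prelp, which links matrix to basement membrane, lay at 304 CPM at d0, 45.7 at d3 post-fracture, 122 at d5 post-fracture, 48.5 at d3 post-polytrauma and 35.7 at d5 post-polytrauma. It was the one gene with its lowest value at d5 post-polytrauma. Omd, which is best known from bone, was scarce, with 29.0 CPM at d0, 2.10 at d3 post-fracture (210 UMIs), 20.8 at d5 post-fracture, 1.37 at d3 post-polytrauma (142 UMIs) and 3.99 at d5 post-polytrauma.

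Ogn, the class III gene, lay at 725 CPM at d0, 181 at d3 post-fracture, 778 at d5 post-fracture, 132 at d3 post-polytrauma and 340 at d5 post-polytrauma. Its d5 post-fracture level was slightly above d0, and at both days polytrauma was below fracture. In the ordering of the 5 libraries, 6 genes (Dcn, Fmod, Lum, Kera, Prelp and Omd) had d0 as the highest library and 3 (Bgn, Aspn and Ogn) d5 post-fracture. In these orders the counting intervals of neighbouring libraries overlapped for Kera at d5 post-fracture and d3 post-polytrauma (3.84 to 5.01 and 4.25 to 5.09 CPM), and for no other pair of neighbours.

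**Figure D2:**
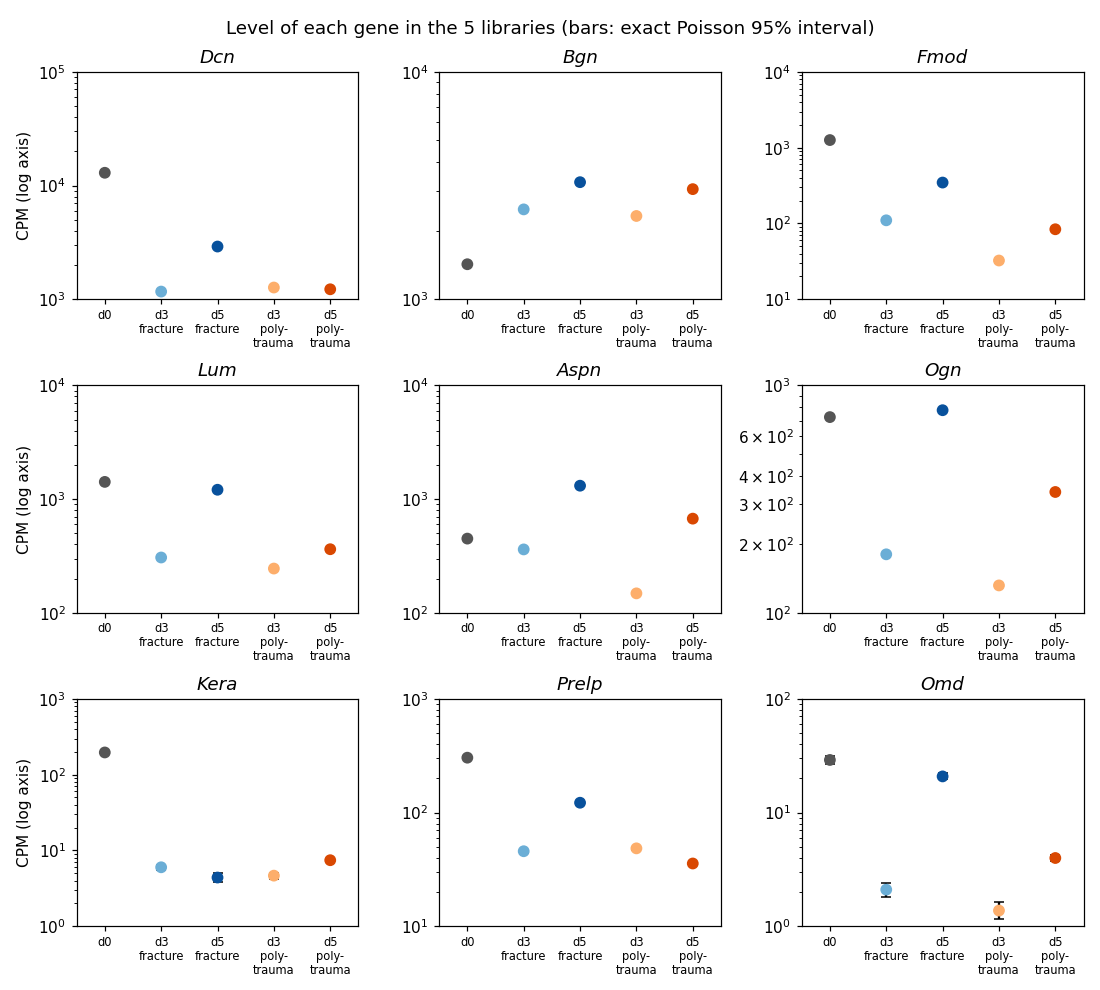
Level of each SLRP gene (CPM on a log axis, whose range differs between panels) in the 5 libraries, 1 point per library, with exact Poisson 95% intervals, mostly smaller than the points. Bgn alone has its lowest point at d0, and Kera is within 4.40 to 7.44 CPM in every injured library.

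Comparisons were read against all 9388 genes with a mean of at least 5 CPM over the libraries, and all 9 SLRP genes passed this filter. Per-million scaling moved the median of all these genes by -0.27 (log2) at d3 post-fracture against d0, -0.29 at d3 post-polytrauma against d0, 0.53 at d5 against d3 after fracture and 0.46 after polytrauma, and by -0.03 and -0.01 in the comparisons between injuries. Changes relative to that median are therefore given too.

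The first question was how SLRP genes stood 3 days after fracture. Of the 9 genes, 7 were called lower than at d0, against 25.1% of all tested genes, and 0 higher, against 12.5%. The median log2 ratio was -2.73 over the 9 genes and -0.27 over all genes. Kera was 32.7-fold lower, Omd 13.8-fold (11.7 to 16.3), Fmod 11.4-fold (11.2 to 11.7), Dcn 11.1-fold, Prelp 6.65-fold, Lum 4.62-fold and Ogn 4.01-fold. The 2 genes outside the call were Aspn, at a log2 ratio of -0.32, or -0.04 relative to all genes, and Bgn, at 0.80, or 1.07 relative to all genes. Under median-of-ratios scaling, which divides by the median ratio of genes over libraries instead of the total, Bgn came to 1.38 and was called, and Aspn came to 0.26 with its sign turned. By that scaling 25.8% of all tested genes were higher and 13.4% lower. Within the FAP/MP-like clusters Dcn (14909 against 2530 CPM), Lum, Ogn, Kera, Prelp and Omd were called lower and Bgn called higher (1422 against 3641 CPM). Fmod (50.8 against 64.9 CPM) and Aspn (320 against 554 CPM) were higher there without being called, opposite to their whole-library ratios. These clusters held 73.3% of cells at d0 and 28.4% at d3 post-fracture, where 66.5% of cells lay in unnamed clusters. Their naming rests on progenitor markers, among them Cd34, which lay at 689 CPM at d0 and 47.3 at d3 post-fracture. Whether the clusters so named hold like cells in both libraries was not tested. The share of all tested genes called within them was not computed.

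At d3 post-polytrauma 8 of the 9 genes were called lower than at d0, against 24.9% of all tested genes, and 0 higher, against 11.6%. The order was much the same, from Kera (42.2-fold lower) and Fmod (38.8-fold, 37.4 to 40.3) through Omd (21.1-fold), Dcn (10.2-fold), Prelp (6.27-fold), Lum (5.78-fold) and Ogn (5.50-fold) to Aspn (3.03-fold). Bgn again stood apart at a log2 ratio of 0.70, and under median-of-ratios scaling it was called higher (1.24), as were 22.9% of all tested genes. With the conditions as deposited, the library named d3 post-polytrauma gave 4 genes lower and 2 higher, with no share of all tested genes computed. These comparisons share the d0 library, so their likeness is not independent.

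Between d3 and d5 post-fracture the genes differed in the other direction. Of the 9 genes, 7 were called higher at d5, against 32.9% of all tested genes, and 0 lower, against 4.39%. The median log2 ratio was 1.65 over the 9 genes and 0.53 over all genes. Omd was 9.90-fold higher (8.53 to 11.5), Ogn 4.30-fold, Lum 3.94-fold, Aspn 3.63-fold, Fmod 3.15-fold, Prelp 2.67-fold and Dcn 2.49-fold. Bgn (log2 ratio 0.40) and Kera (-0.45) were not called, and both lay below the median of all genes. Under median-of-ratios scaling 4 genes (Lum, Aspn, Ogn and Omd) stayed called higher, Kera was called lower at -1.19, and Bgn turned to -0.34. By that scaling 11.9% of all tested genes were higher and 22.4% lower. Within the FAP/MP-like clusters Dcn, Lum, Ogn, Omd and Kera were called higher at d5, with no share of all genes computed there. For Kera this rested on 12 UMIs at d3 and 43 at d5. Fmod was level (64.9 CPM at d3 and 62.8 at d5), Aspn (log2 ratio 0.55) and Prelp (0.68) were not called, and Bgn stood at -0.39. With the conditions as deposited, 0 genes were higher over whole libraries, against 1.65% of all tested genes, and 2 lower, against 1.84%.

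Between d3 and d5 post-polytrauma 4 of the 9 genes were called higher, against 25.2% of all tested genes, and 0 lower, against 3.44%. Aspn was 4.54-fold higher (4.47 to 4.62), Omd 2.90-fold, Fmod 2.58-fold and Ogn 2.58-fold. Lum (log2 ratio 0.56), Kera (0.68) and Bgn (0.39) were not called, and Dcn (-0.05) and Prelp (-0.44) were level or lower. Relative to all genes Aspn stood at 1.73 and Dcn at -0.51. Under median-of-ratios scaling Aspn and Omd stayed called, against 11.6% of all tested genes higher, and Bgn turned to -0.10. With the conditions as deposited, 0 genes were higher, against 1.40% of all tested genes, and 6 lower, against 6.98%.

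Polytrauma was compared with fracture at the same day, in cells of the same sorted lineage. Each side is 1 library, and the mix of named cell types differed. At d3, FAP/MP-like cells were 28.4% after fracture and 40.1% after polytrauma. At d3, 2 of the 9 genes were called lower after polytrauma, against 1.84% of all tested genes, and 0 higher, against 1.65%. Fmod was 3.39-fold lower (3.26 to 3.53), with 0.49% of all tested genes below it, and Aspn 2.44-fold lower, with 1.05% below it. The other genes had log2 ratios between -0.61 (Omd) and 0.12 (Dcn). When dividing clusters were left out 4 genes were called lower. That filter was unequal, as it kept 3567 of 5589 cells after fracture and 5360 of 6201 after polytrauma. The share of all tested genes was not computed for it. Both d3 libraries lie in the same barcode set. With the conditions as deposited the direction turned, with 7 genes called higher, against 32.9% of all tested genes, and 0 lower, against 4.39%.

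At d5, 6 of the 9 genes were called lower after polytrauma than after fracture, against 6.98% of all tested genes, and 0 higher, against 1.40%. The median log2 ratio was -1.25 over the 9 genes and -0.01 over all genes. Omd was 5.22-fold lower (4.76 to 5.73), Fmod 4.13-fold, Prelp 3.42-fold, Lum 3.33-fold, Dcn 2.38-fold and Ogn 2.29-fold. Aspn lay just outside the call at 1.95-fold lower, Bgn differed little (log2 ratio -0.10), and Kera, with 228 UMIs after fracture, was 1.69-fold higher. Under median-of-ratios scaling 5 genes were called lower, against 5.26% of all tested genes, with Ogn at -0.99, and Bgn turned to 0.10. Within the FAP/MP-like clusters 4 genes were called lower: Dcn (7330 against 1922 CPM), Lum (1681 against 615), Prelp (231 against 62.2) and Omd. The share of all tested genes called within these clusters was not computed, so that count has no background beside it. Fmod was level there (62.8 against 64.3) and Aspn nearly so. These clusters held 19.6% of cells after fracture (288 cells) and 31.5% after polytrauma, while unnamed clusters held 65.9% and 59.1%. Both d5 libraries lie in the same barcode set, but the fracture library had the fewest cells and the highest median depth per cell of the 5. With the conditions as deposited 4 genes were called higher, against 25.2% of all tested genes, and 0 lower, against 3.44%.

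**Figure D3:**
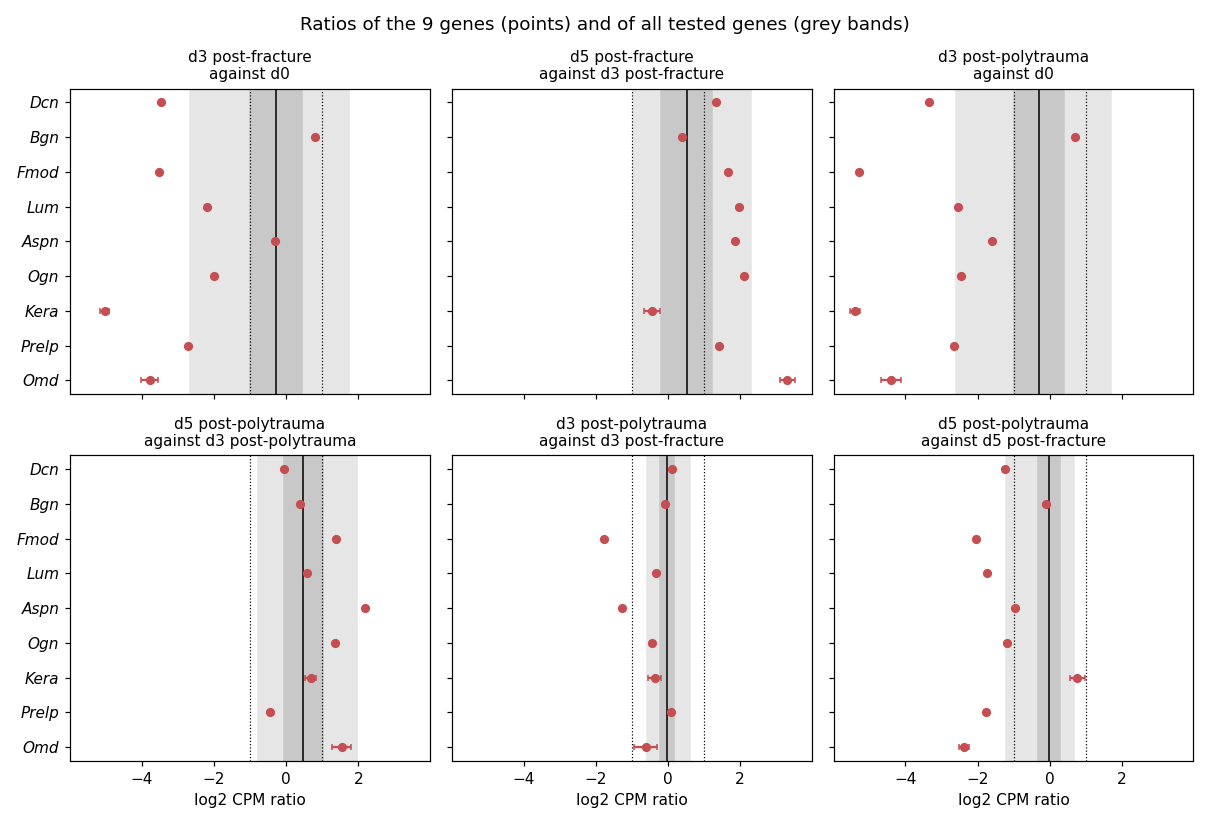
Log2 CPM ratio of each SLRP gene (points, exact 95% intervals) in the 6 comparisons, over the 5th to 95th (light grey) and 25th to 75th (dark grey) percentiles and the median (line) of all tested genes; dotted lines mark 2-fold. Kera lies farthest to the left in each comparison with d0, followed by Omd at d3 post-fracture and by Fmod at d3 post-polytrauma. At d5 post-polytrauma against d5 post-fracture 6 points lie left of the 2-fold line.

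Single cells were compared after drawing 1000 UMIs from each, which left out no cell. A UMI of Dcn was then seen in 88.6% of cells at d0, 56.7% at d3 post-fracture, 75.7% at d5 post-fracture, 61.2% at d3 post-polytrauma and 58.8% at d5 post-polytrauma. For Bgn the shares were 54.0%, 86.1%, 89.4%, 85.3% and 92.8% in the same order. Dcn outnumbered Bgn in 86.1% of d0 cells and in 13.5% to 31.9% of cells in the injured libraries, while Bgn outnumbered Dcn in 3.28% of d0 cells and in 53.8% to 73.8% after injury. Bgn thus outnumbered Dcn in most cells of each injured library, though different cells were compared between libraries. Summed by cell type, Dcn stayed ahead in the FAP/MP-like cells of d5 post-fracture (7330 against 2780 CPM). Bgn led in the FAP/MP-like cells of the other injured libraries. In tenocyte-like cells Dcn and Bgn lay at 3032 and 2878 CPM at d3 post-fracture, 2449 and 2427 at d3 post-polytrauma, and 2428 and 2723 at d5 post-polytrauma. Aspn was seen in 23.7% of cells at d0, 60.4% at d5 post-fracture and 46.0% at d5 post-polytrauma, and Lum in 51.3%, 59.2% and 28.6%. Kera was seen in 5.29% of d0 cells and in 0.27% to 0.79% of cells elsewhere, and Omd in at most 2.04% of cells in any library. The median cell held UMIs of 3 SLRP genes at d0, 2 in both d3 libraries, 4 at d5 post-fracture and 3 at d5 post-polytrauma. At least 4 SLRP genes were seen in 56.4% of cells at d5 post-fracture and in 27.2% at d5 post-polytrauma.

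A background for these shares, such as free RNA in droplets may give, was read from hematopoietic-like cells. Doublets were not called, and the source of SLRP UMIs in these cells was not tested. In the 91 such cells of d3 post-polytrauma (median 3769 UMIs against 15688 over all cells), Dcn was seen in 7.69% and Bgn in 16.5%, Lum in 1.10% and Aspn, Fmod, Kera and Omd in 0 (upper limit 3.97%). In the 29 such cells of d5 post-polytrauma (median 6597 UMIs against 15753), Dcn was seen in 3.45%, Bgn in 27.6% and Aspn in 6.90%. These cells are too few to set apart the shares of Kera, Omd and Fmod (2.56%) at d3 post-polytrauma, or that of Prelp at d5 post-polytrauma (4.14% against 3.45%), and no difference is read from those shares. Where Kera and Fmod UMIs lay is given by cluster. The groups of 5 cells at d0 and 23 cells at d3 post-fracture are small, with Dcn in 60% and 34.8% of them and median depths of 2416 and 4449 UMIs against 3640 and 17963 over all cells, and d5 post-fracture had no such cluster. Without thinning, Dcn was seen in 94.8% to 98.0% of cells of every library and Bgn in 74.6% at d0 and 98.6% to 99.7% elsewhere.

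**Figure D4:**
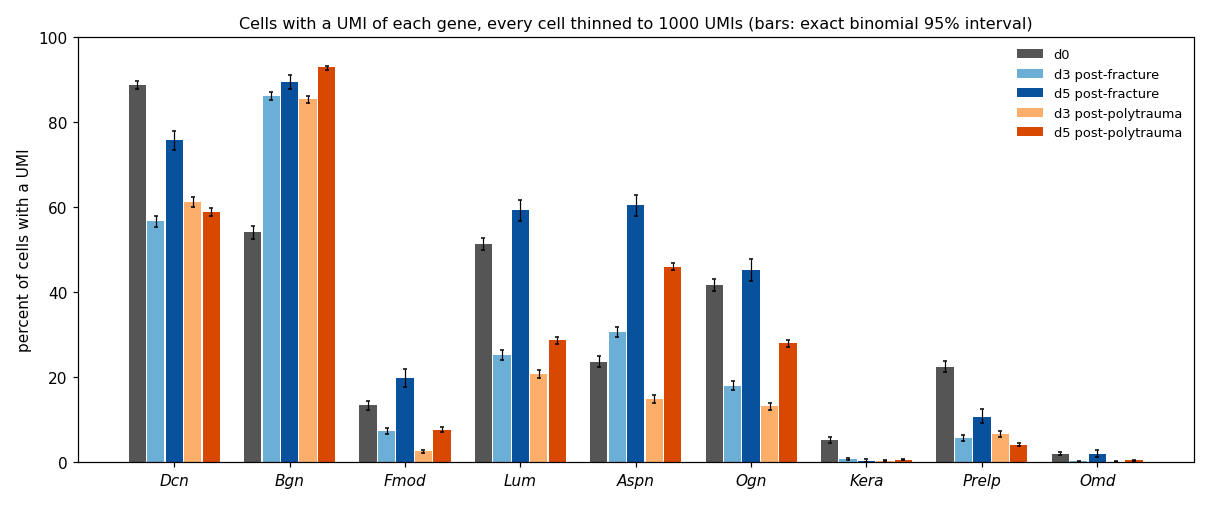
Percent of cells with a UMI of each SLRP gene after every cell was thinned to 1000 UMIs, by library, with exact binomial 95% intervals. Dcn bars are tallest at d0 (88.6%) and Bgn bars tallest at d5 post-polytrauma (92.8%), while Kera and Omd bars stay at or below 5.29%.

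Cells of each library were clustered without the SLRP genes, so that their levels by cluster are a description that did not shape the clusters. At d0, Fmod and Kera came from few cells. The 386 tenocyte-like cells (8.33% of the library, clusters 7 and 9, named by Scx, Tnmd, Mkx and Thbs4) held 90.8% of all Fmod UMIs and 95.3% of all Kera UMIs. Fmod lay at 14270 CPM in cluster 7 and 4593 in cluster 9, and at 50.8 over the FAP/MP-like cells. Kera lay at 2094 CPM in cluster 9 and 7.98 over the FAP/MP-like cells. These cells were also the highest in Ogn (1565 CPM) and Prelp (893 CPM). Lum showed the reverse distribution, with 92.0% of its UMIs in the FAP/MP-like cells (1909 CPM) and 422 CPM in tenocyte-like cells. It was highest in FAP/MP-like clusters 10 (6503 CPM) and 8 (5299 CPM). Both met the naming rule in Cxcl12, Pdgfra and Cd34, and not in Prrx1 or Ly6a. In a finer clustering (resolution 1) the cluster led, like cluster 8, by Thrsp and Saa1 stayed unnamed. Dcn was highest in cluster 10 too (33128 CPM, 97 cells). Summed by cell type, however, Dcn was higher in tenocyte-like cells (22105 CPM) than in FAP/MP-like cells (14909 CPM). The 65 osteoblast-like cells led for Omd (347 CPM, 29.4% of its UMIs), Aspn (2108 CPM) and Bgn (4919 CPM), while Kera had no UMI there. In the 742 pericyte-like cells Dcn (861 CPM) and Bgn (219 CPM) were at their lowest of the d0 clusters of at least 50 cells, but Aspn lay at 629 CPM and 25.7% of its UMIs came from these cells.

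After injury the division remained in part for Fmod and Kera, at lower levels. For Lum it did not remain at d3 and was slight at d5 post-polytrauma. Lum lay at 687 CPM in FAP/MP-like and 712 in tenocyte-like cells at d3 post-fracture. The values were 365 and 452 at d3 post-polytrauma, and 615 and 534 at d5 post-polytrauma. Within tenocyte-like cells Lum was higher at d3 post-fracture than at d0 (log2 ratio 0.75), opposite to its whole-library ratio. The tenocyte-like cells of d3 post-fracture (263 cells) held 47.4% of Fmod and 88.3% of Kera UMIs, at 1354 and 138 CPM. Those of d3 post-polytrauma (513 cells) held 57.7% and 90.2%, at 240 and 54.0 CPM, and those of d5 post-polytrauma (745 cells) 25.7% and 73.5%, at 347 and 88.3 CPM. Within tenocyte-like cells Fmod was therefore 8.20-fold lower at d3 post-fracture and 46.2-fold lower at d3 post-polytrauma than at d0. Bgn was level within these cells, at 2784 CPM at d0 and 2878, 2427 and 2723 in the other libraries that had them. At d0 the name joined clusters 7 and 9, which were led by different genes. Tnmd, used for naming, lay at 455 CPM at d0, 38.6 at d3 post-fracture and 22.7 at d3 post-polytrauma over whole libraries. Whether the clusters so named hold like cells in each library was not tested. At d5 post-fracture no cluster took the name, although a finer clustering (resolution 1) named 42 cells tenocyte-like there. Unnamed clusters 1 (358 cells) and 7 (131 cells) exceeded the average of the others in Scx, Tnmd, Mkx and Thbs4. Cluster 2 (254 cells) did so in Tnmd, Mkx and Thbs4. Tnmd lay at 123 CPM in this library, the highest of the injured libraries, so no absence of tenocyte-like cells is read from the names. Kera reached at most 7.28 CPM in any cluster of at least 50 cells there. In the libraries with tenocyte-like clusters, the Kera total thus depended mainly on the share of tenocyte-like cells and the level in each of them. The Fmod total did so at d0, but after injury a large part came from other cells. Unnamed clusters held 40.7% of Fmod UMIs at d3 post-fracture, 26.8% at d3 post-polytrauma, 42.6% at d5 post-polytrauma and 52% at d5 post-fracture.

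Clusters named chondrocyte-like were present in the d5 libraries. In the 175 such cells of d5 post-fracture Fmod lay at 957 CPM and Omd at 54.7, the highest of that library's clusters and 45% and 42.9% of each gene's UMIs, while Aspn (527 CPM), Ogn (242) and Bgn (2288) were at their lowest of the clusters of at least 50 cells. In the 241 chondrocyte-like cells of d5 post-polytrauma Fmod lay at 663 CPM, Omd at 36.5 and Prelp at 214, again the highest of that library's clusters. Of those 241 cells, 100 carried barcodes also found in another library, and over the remaining 141 the levels were 650 CPM for Fmod, 35.9 for Omd and 218 for Prelp. With shared barcodes counted, chondrocyte-like cells were 2.02% of the polytrauma library and 11.9% of the fracture library. Without shared barcodes the polytrauma library held 11603 cells, of which the 141 are a smaller share.

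The single cluster highest in Dcn and Lum was FAP/MP-like in both post-fracture libraries. Summed by cell type at d3 post-fracture, tenocyte-like cells lay above FAP/MP-like cells in Dcn (3032 against 2530 CPM) and Lum (712 against 687). At d5 post-fracture FAP/MP-like clusters 6 and 5 held Dcn at 7753 and 6920 CPM and Lum at 1729 and 1636. At d3 post-fracture cluster 8, led by Pi16 and Clec3b, held Dcn at 5945 CPM and Lum at 1122. The medians over that library's clusters of at least 50 cells were 1034 and 395. At d3 post-polytrauma the highest values, 2508 CPM for Dcn and 1105 for Lum, lay in an unnamed cluster of 68 cells of low depth. At d5 post-polytrauma the highest values, 3148 and 1205 CPM, lay in an unnamed cluster of 116 cells of which 88.8% carried shared barcodes, followed by FAP/MP-like cluster 4 (3106 and 1114 CPM). Over clusters of at least 50 cells, Bgn spanned 22.5-fold from lowest to highest at d0, 4.84-fold at d3 post-fracture and 5.45-fold at d3 post-polytrauma. At d5 it spanned 1.81-fold post-fracture and 2.80-fold post-polytrauma. Smaller clusters lay below these ranges at d0 (156 CPM, 5 cells), d5 post-fracture (1294 CPM, 38 cells) and d5 post-polytrauma (987 CPM, 29 cells). In pericyte-like cells Bgn lay at 219 CPM at d0, 2260 at d3 post-polytrauma, 1294 at d5 post-fracture (38 cells) and 2336 at d5 post-polytrauma. At d3 post-fracture 2 clusters exceeded the others in all 5 pericyte markers but stayed unnamed, with Bgn at 764 CPM in the 68 cells of cluster 9 and 3686 in the 50 cells of cluster 10. Aspn at d5 post-fracture was highest in 3 unnamed clusters (1536 to 1879 CPM), led by Enpp1 and Ank, by Igfbp2 and Egfl6, and by granzyme genes, and at d5 post-polytrauma in FAP/MP-like cluster 6 (1498 CPM, median depth 5569 UMIs against 15753 in its library).

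**Figure D5:**
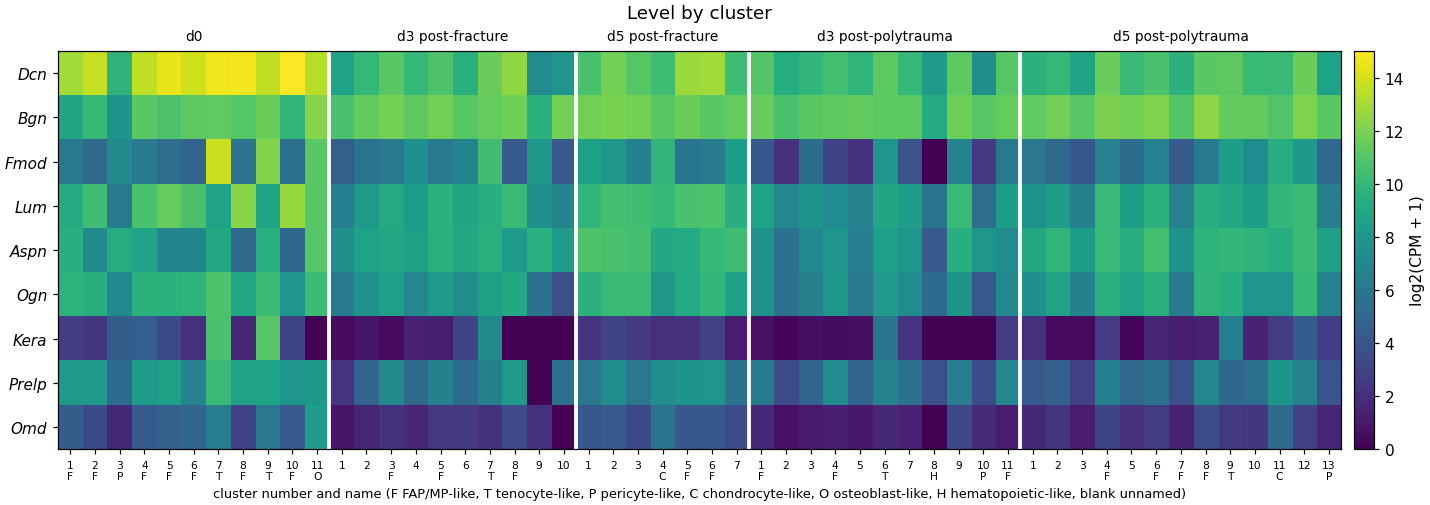
Log2(CPM + 1) of each SLRP gene in every cluster of at least 50 cells, with libraries side by side; letters give the name a cluster took. Within each library that has them, Kera is brightest in a tenocyte-like cluster (T) and Omd in the osteoblast-like (O) or chondrocyte-like (C) cluster, while Bgn is bright in nearly all clusters after injury.

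Across the 52 library-by-cluster groups of at least 50 cells, log2(CPM + 1) was correlated between genes as a description only, since groups of a library share depth and preparation. Among SLRP pairs Dcn and Prelp were most alike (r = 0.86), followed by Dcn and Lum (0.82), Dcn and Ogn (0.78) and Lum and Ogn (0.75). Dcn and Bgn had r = 0.09 over all groups, but 0.63 to 0.71 within 4 of the 5 libraries and -0.02 within d5 post-fracture (7 groups). Genes next to each other on a chromosome were not uniformly alike, with Dcn and Lum at 0.82 and Omd and Ogn at 0.73, but Lum and Kera at 0.22 and Aspn and Omd at 0.39. Prelp and Fmod stood at 0.43.

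Of the genes outside the set with a mean of at least 5 CPM, those most like Fmod were the tendon genes Tnmd (r = 0.88) and Mkx (0.87), both also used to name clusters, and Zfp185 (0.84). Those most like Kera were Tnmd (0.80), Ptx4 (0.78) and Mkx (0.73). Dcn was most like Cped1 (0.91), Apod, which encodes a lipid carrier (0.90), and Prnp (0.89). Lum was most like the gelatinase gene Mmp2 (0.87), Prnp and Gulp1, and Ogn like Itgbl1 (0.89), the elastic fibre gene Fbln5 (0.89) and Ssc5d (0.89). Bgn was most like Tmed3 (0.81), C1qtnf6 (0.81) and Cnpy2 (0.80), and Aspn like Neo1 (0.82), Plce1 and Trim2. Prelp was most like Steap3 (0.84), Prnp and Lbp, and Omd like Aff3 (0.85), Itgbl1 and Klf10.

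Genes that act with SLRPs were counted in the same way, and their counts stand against the same shares of all tested genes. Against d0, 25.1% of all genes were lower and 12.5% higher at d3 post-fracture, and 24.9% lower and 11.6% higher at d3 post-polytrauma. At d5 against d3, 32.9% were higher and 4.39% lower after fracture, and 25.2% higher and 3.44% lower after polytrauma. Between injuries 1.84% were lower and 1.65% higher at d3, and 6.98% lower and 1.40% higher at d5. No count is read as particular to its list. Under the deposited labels the d5 against d3 post-fracture comparison and the d3 comparison between injuries change places, as do the d5 against d3 post-polytrauma comparison and the d5 comparison between injuries. Among other leucine-rich repeat proteoglycan genes 5 of 9 could be tested. At d3 3 were called lower and 1 higher than at d0 after either injury, and 3 were higher at d5 than at d3 in each. Chad, the cartilage gene chondroadherin, lay at 356 CPM at d0, 5.95 and 8.77 at d3 and d5 post-fracture, and 0.51 and 0.45 at d3 and d5 post-polytrauma, which made it the lowest of the list at d5 post-polytrauma against d5 post-fracture (log2 ratio -4.29). Ecm2 lay at 144 CPM at d0, 11.6 at d3 post-fracture, 44.0 at d5 post-fracture, 8.35 at d3 post-polytrauma and 25.1 at d5 post-polytrauma. Podn was 2-fold or more higher at d5 than at d3 post-fracture (log2 ratio 1.30), as was Podnl1 (1.31), and lower at d5 post-polytrauma than at d5 post-fracture (-1.07).

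Of the genes that build chondroitin and dermatan sulfate chains 17 of 22 could be tested. Against d0, 3 were higher and 2 lower at d3 post-fracture, and 3 higher and 3 lower at d3 post-polytrauma. At d5, 7 of the 17 were higher and 0 lower than at d3 after either injury. Xylt1, which starts the chain on the core protein, lay at 6.87 CPM at d3 post-fracture and 52.3 at d5 (log2 ratio 2.93), with B3galt6 (2.5) and the epimerase gene Dsel (1.60) next. Between injuries at d5, 2 were lower and 0 higher after polytrauma, Xylt1 (-1.93) and the sulfotransferase gene Chst11 (-1.25), while Chsy1 stood at -0.72. Of the keratan sulfate genes 6 of 8 could be tested. At d5, 2 were higher than at d3 post-fracture, St3gal2 (1.68) and B4galt4 (1.42), with B4galt1 at 0.54, and none was called between injuries at d5, where Chst1 (0.73), Chst2 (0.72) and B4galt4 (-0.87) differed most.

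The fibrillar collagens and their processing enzymes, the structures that SLRPs coat, had 14 of 16 genes tested. Of these, 9 were higher at d5 than at d3 post-fracture and 11 at d5 than at d3 post-polytrauma, with 0 lower in either. The cartilage collagens Col2a1 (0.87 against 1525 CPM), Col11a2 and Col11a1 differed most after fracture. The same 3 genes were lowest at d5 post-polytrauma against d5 post-fracture, at log2 ratios of -4.29, -4.15 and -2.35, where 4 genes were called lower and 0 higher. Of proteases that cleave SLRPs 7 of 8 were tested and 6 were higher at d5 than at d3 post-fracture, among them Htra1 (2.95), Mmp13 (2.55) and Mmp14 (2.11). At d5 against d3 post-polytrauma 3 were higher. Against d0, 3 were lower at d3 post-fracture and 5 at d3 post-polytrauma, with 0 higher. Between injuries at d5, 3 were lower after polytrauma, Mmp3 (-2.51), Mmp13 (-2.49) and Mmp2 (-1.33). Of growth factors and receptors that SLRPs bind 8 of 11 were tested, and 3 were higher at d5 than at d3 post-fracture, Tgfb1 (3.62 against 49.3 CPM), Egfr (log2 ratio 1.26) and Igf1r (1.01). At d5 post-polytrauma against d5 post-fracture Tlr2 was lower (-1.30), with Tgfb3 (-0.50) and Egfr (-0.45) not called. At d3 between injuries each of these lists had at most 2 genes called, all lower after polytrauma.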

How the data were processed

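Single-cell libraries were analysed from UMI counts per gene and barcode that the authors deposited without normalization, made from mm10 alignments with Cell Ranger (3.1.0 in the matrix headers). Barcodes with 350 to 8000 genes, under 20% mitochondrial UMIs and at least 1000 UMIs were kept. Doublets were not called; the cells of most UMIs were left out as an alternative. Counts were summed per library and scaled to CPM, with exact Poisson intervals for levels, exact conditional binomial intervals for ratios and Clopper-Pearson intervals for shares. The precision follows from depth, 17437190 to 202233564 UMIs per library. PCR and mouse-to-mouse variation are not covered.

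Clusters were computed per library in scanpy 1.11.5 (2000 variable genes without the SLRP genes, 20 components, Leiden resolution 0.5). A cluster was named when 3 or more markers of a type, each seen in 10% of its cells, exceeded their average elsewhere in the library. For types other than FAP/MP the excess had to be 2-fold, a factor set after clusters were seen. A cluster stayed unnamed where its 10 leading genes held more markers of another type, or where its median depth was low and they held none of its own. Names rebuilt in this way may differ from those of the study. Dividing clusters were those with Top2a, Cenpe or Hells among their 10 leading genes. Barcodes in more than 1 library were shared unless they held 10 times the UMIs of the others. Outside the set, genes were named as the 3 of each list with the largest ratios at d5 against d3 post-fracture and at d5 post-polytrauma against d5 post-fracture, and the 3 nearest to each SLRP gene in pattern. The set, lists and tests were chosen with earlier results of these data known. Ratios were tested on simulated data. Python 3.11.15, numpy 2.4.6, scipy 1.17.1 and pandas 2.3.3 were used. Alternatives covered labels, scaling, cell filters, clusters and thinning depth.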

Additional observations from a re-analysis of the deposited data

Results flagged for a closer look

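For 3 SLRP genes the levels differed between d3 and d5 in opposite directions after the 2 injuries, with both intervals away from 0, and the difference itself was not tested because each condition has 1 library. Dcn was higher at d5 after fracture (log2 ratio 1.32) and slightly lower after polytrauma (-0.05). Prelp was higher after fracture (1.42) and lower after polytrauma (-0.44). Kera was lower after fracture (-0.45) and higher after polytrauma (0.68), on 228 to 1505 UMIs per library. Within FAP/MP-like clusters Prelp kept opposite directions (0.68 and -0.54), whereas Kera was higher at d5 after both injuries (3.09 and 1.95, on 12 to 138 UMIs) and Dcn was higher after fracture (1.53) and level after polytrauma (1922 CPM at both days). Groups of 1 library allow no check for outlying samples.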

How the results depend on the processing

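With the conditions as deposited, 28 of the 54 log2 ratios kept their sign. The counts of SLRP genes called higher and lower were then 0 and 2 at d5 against d3 post-fracture, 2 and 4 at d3 post-polytrauma against d0, 0 and 6 at d5 against d3 post-polytrauma, 7 and 0 at d3 between injuries, and 4 and 0 at d5 between injuries. Shares of all tested genes stand beside these counts with each comparison above, where computed. The other 26 ratios turned. At d5 against d3 post-fracture these were Bgn (-0.10), Fmod (-1.76), Lum (-0.32), Aspn (-1.28), Ogn (-0.45) and Omd (-0.61), and at d3 post-polytrauma against d0 Aspn (1.55) and Ogn (0.10). At d5 against d3 post-polytrauma they were Bgn (-0.10), Fmod (-2.05), Lum (-1.74), Aspn (-0.96), Ogn (-1.19) and Omd (-2.38). Between injuries they were Bgn (0.40), Fmod (1.65), Lum (1.98), Aspn (1.86), Ogn (2.10) and Omd (3.31) at d3, and Bgn (0.39), Fmod (1.37), Lum (0.56), Aspn (2.18), Ogn (1.36) and Omd (1.54) at d5.

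Under median-of-ratios scaling 1 gene was higher at d3 against d0 after either injury, 4 were higher and 1 lower at d5 against d3 post-fracture, and 2 were higher at d5 against d3 post-polytrauma. With the mean of each cell's own CPM, 1 was higher at d3 post-fracture against d0 and 1 lower at d5 against d3 post-fracture. The next alternatives were chosen after seeing the data. In FAP/MP-like clusters alone 1 gene was higher at d3 against d0 after either injury, and 42 of the 54 signs were kept. Those that turned were Fmod (0.35) and Aspn (0.79) at d3 post-fracture against d0, and Fmod (-0.047), Bgn (-0.39) and Kera (3.09) at d5 against d3 post-fracture. At d3 between injuries they were Dcn (-0.40), Kera (0.18) and Prelp (-0.66), and at d5 Fmod (0.032), Bgn (0.38) and Kera (-0.96), while Dcn at d5 against d3 post-polytrauma came to 0. Without dividing clusters 1 was higher at d3 post-fracture against d0, 1 lower at d5 against d3 post-fracture and 4 lower at d3 between injuries. At d3 that filter kept unequal shares of the cells after fracture and after polytrauma. In each case other than the exchanged labels the cause was not tested. Of the alternatives in this paragraph, shares of all tested genes were computed for median-of-ratios scaling alone.

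Scaling turned 4 signs, the mean over cells 3 and leaving out dividing clusters 4, none of a called ratio. All 54 ratios kept their sign and their side of 2-fold with cells of at least 5000 UMIs, with no minimum of UMIs, without shared barcodes, without the cells of most UMIs, and without hematopoietic-like, pericyte-like and unnamed low-depth clusters. The filter at 5000 UMIs left 918 of 4632 d0 cells and moved ratios by up to 0.79 (log2), with Kera at d3 post-fracture against d0 going from -5.03 to -5.82. With 1 library of 2 pooled mice per condition, variation between mice was not measured. No paired analysis was possible because the conditions have 1 library each. Depth limits the scarce genes most, with 142 UMIs of Omd at d3 post-polytrauma.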
